A study of Homo sapiens with 24 samples.

Results

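The genes described here are 10 human apolipoprotein genes, APOA1, APOA2, APOA4, APOA5, APOB, APOC1, APOC3, APOE, APOH and APOM, found on the arrays as the probes whose RefSeq transcript belongs to one of them. All 10 were represented on the array, and 9 of the 10 were among the 24648 genes tested, and APOA4 did not pass the filter on dim probes. RNA came from HepaRG, an established human liver tumour line that grows as progenitor-like cells and can take on hepatocyte features, and was measured on 24 one-colour Agilent arrays, 3 independent cultures for each of 8 conditions. Cells received no transfection, 80 pmol of a negative control siRNA, or 80 pmol of an siRNA against β-catenin, each without Wnt3a or with 200 ng/ml of recombinant mouse Wnt3a. In the remaining conditions untransfected cells received 300 ng/ml of FZD8_CRD, the soluble Wnt-binding domain of a frizzled receptor, alone or together with 200 ng/ml of Wnt3a. Wnt3a and FZD8_CRD were present for 72 h, the siRNAs were delivered by electroporation of detached cells, and cells with FZD8_CRD were compared with untransfected cells.

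Apolipoproteins are the protein part of lipoproteins, the particles that carry cholesterol and triglycerides in blood, and the liver makes most of them. APOA1 and APOA2 build high-density lipoprotein (HDL), APOB is the backbone of very-low-density and low-density lipoproteins, and the small APOC and APOE proteins move between particles and govern their lipolysis and their uptake by receptors. In hepatocytes many of these genes are transcribed under the same nuclear receptors and liver-enriched factors, and they are widely used as signs of a differentiated hepatocyte.

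Levels are log2 signals scaled by each array's 75th percentile, so that 0 is that percentile and differences are log2 fold changes. The 75th percentile lay between 643 and 934 intensity units over the 24 arrays, and 58.3% to 66.5% of the spots were well above background. A gene was called when limma's p, adjusted over all genes tested, was under 0.05. Arrays with the same replicate number shared a slide, and each slide held all 8 conditions, so differences within a slide are given for the main changes. The position on the slide was the same for a condition throughout, and position and condition cannot be told apart. A lower level in these bulk cultures can come from fewer cells of a type or from less RNA per cell, and these cannot be told apart.

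CTNNB1, which encodes β-catenin and is the target of the siRNA, read 3.35, 3.37 and 3.51 after control siRNA and 0.26, 0.35 and 0.52 after β-catenin siRNA on replicates 1, 2 and 3. With Wnt3a the values were 3.39, 3.62 and 3.67 after control siRNA and 0.33, 0.52 and 0.77 after β-catenin siRNA. Without transfection CTNNB1 read 3.28, 3.27 and 3.57, with Wnt3a alone 3.40, 3.31 and 3.47, with FZD8_CRD 3.22, 3.38 and 4.11, and with FZD8_CRD and Wnt3a 3.54, 3.98 and 3.89. All 6 arrays of β-catenin siRNA lay below all 18 others, and the mean was 8.19-fold lower than after control siRNA (log2 change of -3.03, adjusted p = 1.2e-09 in limma).

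Over all genes, after each gene was centred, 5 of the 24 arrays correlated more with the arrays of another condition than with their own group. FZD8_CRD replicate 3 correlated with the FZD8_CRD + Wnt3a arrays at r = 0.74 and with the other 2 FZD8_CRD arrays at r = 0.17. In the apolipoprotein genes it differed from the FZD8_CRD + Wnt3a arrays by 0.19 on average (absolute log2) and from the other FZD8_CRD arrays by 1.34. COL1A1, a collagen gene that rose with Wnt3a, read -0.40 and -0.26 on FZD8_CRD replicates 1 and 2, 1.37 on replicate 3, and 2.95, 2.99 and 2.71 with FZD8_CRD and Wnt3a, so that replicate 3 lay between the groups in this gene. Replicate 2 of Wnt3a alone correlated with its own group at r = 0.12 and with control siRNA + Wnt3a at r = 0.35, and in the apolipoprotein genes it differed by 1.17 from its own group and by 0.45 to 0.53 from the siRNA conditions. Replicates 1 and 3 of Wnt3a alone correlated with the untransfected cultures at r = 0.66 and r = 0.60 and with their own group at r = 0.58 and r = 0.21, and β-catenin siRNA + Wnt3a replicate 3 with the β-catenin siRNA arrays at r = 0.46 and with its own group at r = 0.30. All arrays were kept in the groups their labels give, and the changes of the FZD8_CRD group are given with FZD8_CRD replicate 3 and without it. That array was singled out after these values were seen, those of the apolipoprotein genes among them. Adjusted p-values and counts without it are therefore descriptions and no independent test.

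**Figure D1:**
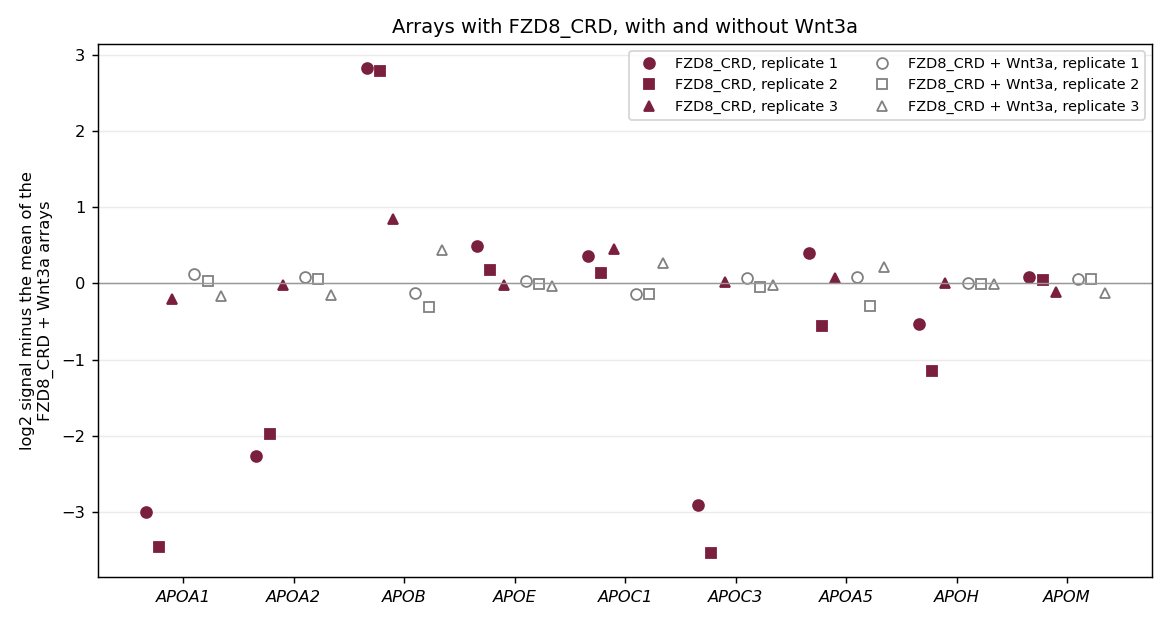
Log2 signal of 9 apolipoprotein genes on the 6 arrays with FZD8_CRD, minus the mean of the FZD8_CRD + Wnt3a arrays, 1 symbol per array. FZD8_CRD replicate 3 (filled triangles) lies near the FZD8_CRD + Wnt3a arrays (open symbols) in most genes, while replicates 1 and 2 lie far from them in APOA1, APOA2, APOB and APOC3.

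Hepatocyte markers were read on the same arrays. The log2 of the summed signal of 11 markers (ALB, TTR, TF and AHSG among them, and all 11 tested) was 10.705, 10.29 and 9.79 without transfection and 9.94, 8.73 and 9.99 with Wnt3a alone. It was 8.85, 8.74 and 8.78 after control siRNA, 8.17, 7.69 and 8.16 after control siRNA with Wnt3a, 9.47, 9.06 and 9.42 after β-catenin siRNA, and 8.26, 8.75 and 9.12 after β-catenin siRNA with Wnt3a. With FZD8_CRD it was 8.75, 8.19 and 8.58, and with FZD8_CRD and Wnt3a 8.65, 8.62 and 8.62. All 3 untransfected cultures without Wnt3a were above every array of the siRNA and FZD8_CRD conditions. ALB itself read 9.76, 9.45 and 9.01 in these cultures. Between FZD8_CRD and FZD8_CRD + Wnt3a the sums overlapped. Of the 11 markers, 2 were called higher and 1 lower in this comparison (8.29% of all genes called), with a median of 0.07. Without FZD8_CRD replicate 3, 6 were called. Hepatocyte markers were lower in the FZD8_CRD and control siRNA comparisons, as most apolipoprotein genes were, and their part in the result was not tested.

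FZD8_CRD alone lowered 8 of the 9 apolipoprotein genes tested, where 41.9% of all genes were called, and the median change was -1.98 for the 9 genes and -0.09 for all genes. APOM was not called, and without FZD8_CRD replicate 3 the count was again 8 (40.6% of all genes). The calls of APOA1, APOA2 and APOA5 ended without replicate 1 of all conditions. Those of APOA1 and APOA2 ended also without replicate 2 of all conditions and with only the conditions compared in the fit. With Wnt3a present, FZD8_CRD lowered 3 of 9 (APOB, APOC1 and APOE), where 37.2% of all genes were called, and the median change was -0.65. Electroporation with control siRNA, set against no transfection, lowered 7 of 9 (22.3% of all genes called), with a median of -1.17, and APOA5 and APOM were not called. The count was 0 without replicate 1 of all conditions (0.945% of all genes) and 1 without replicate 2 of all conditions (8.93%). The same comparison with Wnt3a lowered 4 of 9, APOB, APOC3, APOE and APOH (9.04% of all genes called), with a median of -1.28. The count was 6 without replicate 2 of Wnt3a alone (16.4%). It was 0 without Wnt3a replicate 1 or 3 or control siRNA + Wnt3a replicate 2. Without control siRNA + Wnt3a replicate 1 or 3 it was 2. The untransfected cultures are the reference of both the FZD8_CRD and the control siRNA comparisons.

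Silencing of β-catenin, set against control siRNA, lowered 1 of 9, APOC1 (10.6% of all genes called), with a median of -0.01. With Wnt3a it lowered 2 of 9, APOC1 and APOM (10.6% of all genes called), with a median of -0.08. Of the hepatocyte markers all 11 were above 0 without Wnt3a, with a median of 0.61, and 0 of 11 was called by limma. With Wnt3a 9 of 11 were above 0, with a median of 0.68, and 2 were called higher. The difference between the markers and the apolipoprotein genes was not tested.

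Wnt3a on its own called 0 of 9 in untransfected cells in limma, and again 0 without replicate 2 of Wnt3a alone (0.726% of all genes called). It called 1, APOC1, with the slide as a block or without FZD8_CRD replicate 3. More were called without replicate 3 of all conditions or without either array of slide 3 compared here. Those counts are given below with the differences between slides. With all arrays 5.6% of all genes were called (1381 genes, and 5234 at an unadjusted p under 0.05), and all 9 changes of the members were below 0, with a median of -0.82. After control siRNA it called 0 of 9 in limma (2.11% of all genes, 3461 at an unadjusted p under 0.05), with a median of -0.60, and after β-catenin siRNA 0 of 9 in limma (0.0406% of all genes, 2575 at an unadjusted p under 0.05), with a median of -0.56. With only the conditions compared in the fit, some were called after control siRNA, as given below. With FZD8_CRD, Wnt3a called 2 of 9 (8.29% of all genes): APOA1 was higher and APOB lower. Without FZD8_CRD replicate 3 it called 4 (19.9% of all genes), APOA1, APOA2 and APOC3 higher and APOB lower. Of the 2 calls with all arrays, that of APOA1 ended without any one of the other arrays compared. Both ended without replicate 1 or replicate 2 of all conditions and with only the conditions compared in the fit. The difference between the Wnt3a responses after β-catenin and after control siRNA called 0 of 9 in limma (0.0162% of all genes, 822 at an unadjusted p under 0.05). The difference between the responses with and without FZD8_CRD called 0 of 9 in limma (0.073% of all genes, 3128 at an unadjusted p under 0.05), and 4 without FZD8_CRD replicate 3 (7.75% of all genes).

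**Figure D2:**
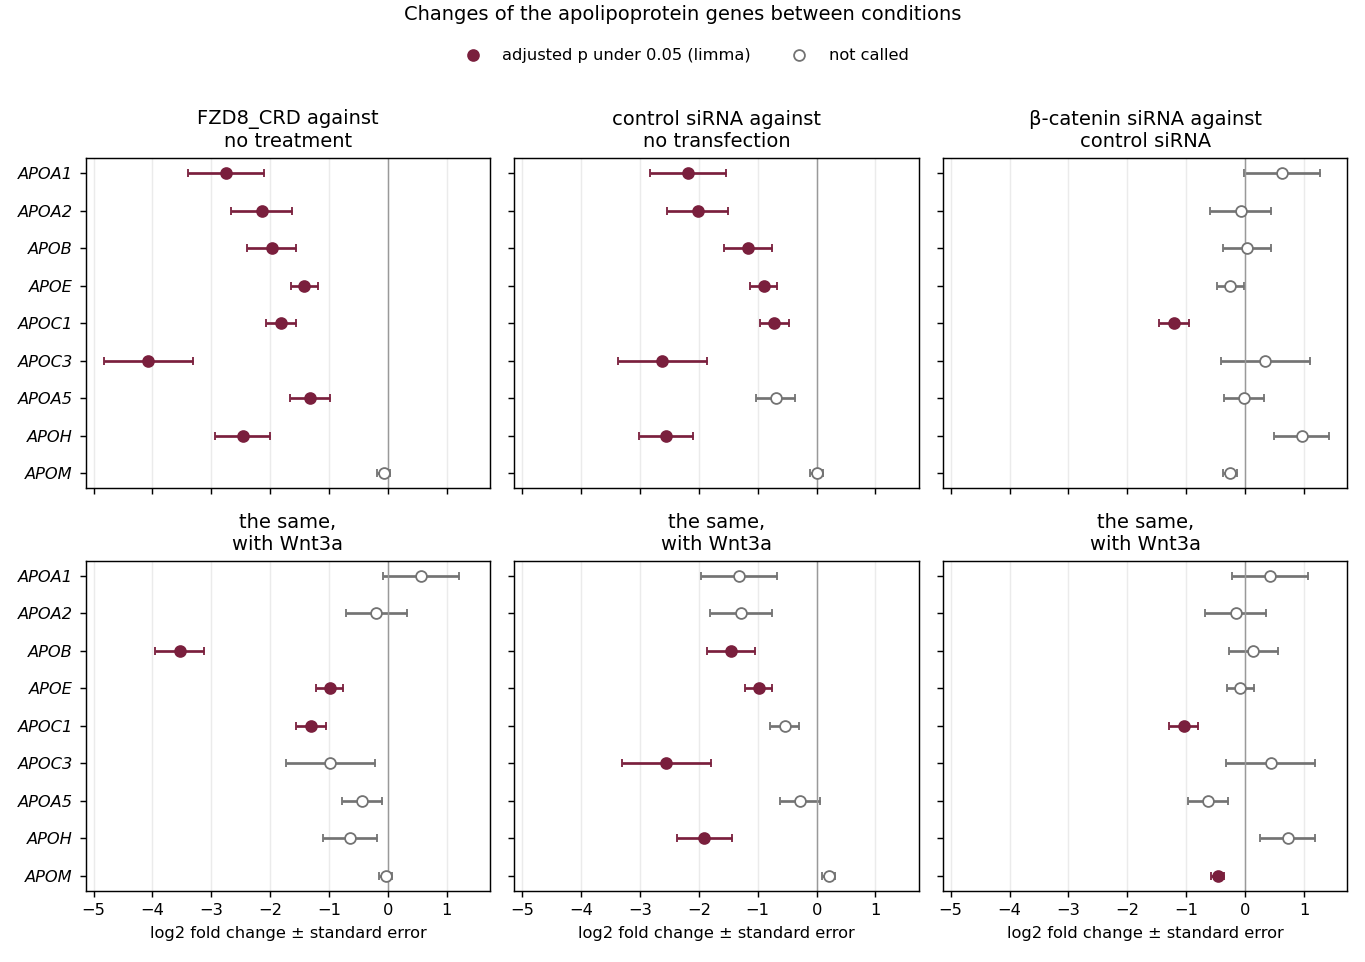
Log2 fold change with its standard error for 9 apolipoprotein genes (limma, 3 arrays a group), FZD8_CRD or control siRNA against untransfected cells and β-catenin siRNA against control siRNA, without Wnt3a (top) and with Wnt3a (bottom). Filled symbols have an adjusted p under 0.05: 8, 7 and 1 genes in the top row and 3, 4 and 2 in the bottom row.

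APOA1, the main structural protein of HDL, read 5.53, 3.94 and 2.47 without transfection and 3.31, 2.13 and 3.22 with Wnt3a. After control siRNA it read 1.91, 1.84 and 1.65, and with Wnt3a 1.79, 1.47 and 1.45. After β-catenin siRNA it read 2.81, 2.17 and 2.29, and with Wnt3a 1.83, 1.99 and 2.17. The untransfected cultures spanned over 3 log2 units, and all of them lay above the control siRNA cultures. With FZD8_CRD APOA1 read 0.45, -0.01 and 3.24, and with FZD8_CRD and Wnt3a 3.57, 3.48 and 3.28. Replicates 1 and 2 with FZD8_CRD were the lowest of all 24 arrays, and replicate 3 was close to the arrays that also received Wnt3a. The change with FZD8_CRD was -2.76 (SE 0.65, adjusted p = 0.0018 in limma), or 6.75-fold lower, and -3.76 without replicate 3. Within slides 1 and 2 it was -5.09 and -3.95 and within slide 3 it was 0.77. The call ended without replicate 1 (-1.59) or replicate 2 (-2.16) of all conditions and with only the conditions compared in the fit. Control siRNA lowered APOA1 by 4.54-fold (log2 change of -2.18, SE 0.65, adjusted p = 0.019, lower within 3 of 3 slides). Wnt3a on top of FZD8_CRD raised it by 2.22, and by 3.23 without FZD8_CRD replicate 3 (adjusted p = 0.00019 in limma). With all arrays it was called (SE 0.65, adjusted p = 0.038), with 3.12, 3.49 and 0.04 within the slides. All 3 arrays lay above all 3, by 3.28 against 3.24 at the nearest. The call with all arrays ended without any one of the 5 arrays other than FZD8_CRD replicate 3. The changes were 1.60 without FZD8_CRD replicate 2, 1.83 without FZD8_CRD replicate 1, and 2.16, 2.20 and 2.30 without FZD8_CRD + Wnt3a replicates 1, 2 and 3. The call after control siRNA ended without untransfected replicate 1 (-1.41) or control siRNA replicate 3 (-2.11). A further APOA1 probe, printed on 10 spots, gave 2.32 for Wnt3a with FZD8_CRD.

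APOA2, the other main protein of HDL, moved in the same directions with FZD8_CRD and control siRNA, at dim signals. It read -1.18, -2.61 and -3.67 without transfection, -2.61, -3.84 and -2.60 with Wnt3a, and -4.14, -4.44 and -4.93 after control siRNA. With FZD8_CRD it read -5.48, -5.19 and -3.23, and with FZD8_CRD and Wnt3a -3.13, -3.16 and -3.36. Again replicate 3 with FZD8_CRD lay with the arrays that received both agents, and the untransfected cultures lay above those with control siRNA. APOA2 was 4.43-fold lower with FZD8_CRD (log2 change of -2.15, adjusted p = 0.0024 in limma, and -2.85 without replicate 3, with -4.30, -2.58 and 0.43 within the slides) and 4.05-fold lower after control siRNA (log2 change of -2.02, adjusted p = 0.0082), and the latter call ended without untransfected replicate 1 (-1.37). Both calls ended without replicate 1 (-1.07 with FZD8_CRD and -1.55 after control siRNA) or replicate 2 (-1.93 and -2.11) of all conditions and with only the conditions compared in the fit. Wnt3a with FZD8_CRD gave 1.42 (adjusted p = 0.11), with 2.35, 2.03 and -0.13 within the slides, and 2.12 without replicate 3 (adjusted p = 0.0032). After β-catenin siRNA the 6 arrays with and without Wnt3a read between -4.77 and -4.22, within the range of the control siRNA arrays.

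APOB is the large, non-exchangeable protein around which the liver assembles its triglyceride-rich particles. It read 4.67, 4.31 and 4.23 without transfection and 3.96, 3.02 and 4.44 with Wnt3a. After control siRNA it read 3.16, 3.17 and 3.37, and with Wnt3a 2.48, 2.02 and 2.55. After β-catenin siRNA it read 3.29, 2.96 and 3.54, and with Wnt3a 1.93, 2.53 and 3.02. Untransfected cultures without Wnt3a were close together and above all arrays of the siRNA conditions. With FZD8_CRD APOB read 3.095, 3.06 and 1.12, and with FZD8_CRD and Wnt3a 0.14, -0.04 and 0.71. The 3 arrays with both agents were the lowest of all 24, and FZD8_CRD replicate 3 was next to them. APOB thus moved opposite to APOA1 between these conditions. Wnt3a with FZD8_CRD changed it by -2.15, and by -2.80 without replicate 3. With all arrays it was called (SE 0.41, adjusted p = 0.0038 in limma), with -2.95, -3.09 and -0.41 within the slides. This call ended without replicate 1 (-1.75) or replicate 2 (-1.68) of all conditions and with only the conditions compared in the fit. Among 22 alternatives the lowest adjusted p was 6e-06 and the highest 0.47. FZD8_CRD with Wnt3a lowered it by 11.6-fold against Wnt3a alone (log2 change of -3.54, SE 0.41, adjusted p = 3.4e-06), with -3.82, -3.06 and -3.73 within the slides. A probe of a further APOB transcript gave -2.17 here (adjusted p = 2e-06), and the highest adjusted p among 23 alternatives was 0.004. FZD8_CRD alone gave -1.98 (adjusted p = 0.00068), and -1.33 without replicate 3 (adjusted p = 0.0035). Control siRNA gave -1.17 (adjusted p = 0.048) without and -1.46 (adjusted p = 0.032) with Wnt3a. The first of these calls ended without any one of the 6 arrays, with changes from -1.25 without untransfected replicate 3 to -1.03 without untransfected replicate 1, and -1.13, -1.14 and -1.24 without control siRNA replicates 1, 2 and 3 and -1.21 without untransfected replicate 2. The call with Wnt3a ended without Wnt3a replicate 1 (-1.38) or 3 (-1.14) and without replicate 1 (-1.52), 2 (-1.29) or 3 (-1.56) of control siRNA with Wnt3a. It also ended with scaling to spike-in probes (-1.19). The probe of the further transcript gave -1.26 with FZD8_CRD alone, and -0.80 without and -0.89 with Wnt3a after control siRNA.

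APOE, the ligand by which remnant particles bind the LDL receptor family, read 9.40, 9.01 and 8.50 without transfection, 8.61, 7.66 and 8.69 with Wnt3a, and 8.17, 8.06 and 7.98 after control siRNA. It read 7.54, 7.10 and 7.37 after control siRNA with Wnt3a, 7.98, 7.66 and 7.81 after β-catenin siRNA, and 6.96, 7.29 and 7.51 after β-catenin siRNA with Wnt3a. With FZD8_CRD it read 7.82, 7.51 and 7.31, and with FZD8_CRD and Wnt3a 7.36, 7.33 and 7.30. The untransfected cultures without Wnt3a were above all arrays of the other conditions except those with Wnt3a alone, and groups next to one another in level overlapped. APOE was 2.67-fold lower with FZD8_CRD (log2 change of -1.42, SE 0.23, adjusted p = 6e-05 in limma, and -1.30 without replicate 3), 1.99-fold lower with FZD8_CRD in the presence of Wnt3a (adjusted p = 0.002), and 1.86-fold lower after control siRNA (log2 change of -0.90, adjusted p = 0.0077), in each case in 3 of 3 slides. The last of these calls ended without untransfected replicate 1 (-0.68). With Wnt3a control siRNA gave -0.98 (adjusted p = 0.013), and this call ended without Wnt3a replicate 1 (-0.84) or 3 (-0.80) or control siRNA + Wnt3a replicate 2 (-0.86), and with scaling to spike-in probes (-0.71). Wnt3a after control siRNA gave -0.73 (adjusted p = 0.1), with all 3 arrays below all 3, which failed the correction.

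APOC1, an inhibitor of lipoprotein uptake that lies next to APOE, was called in both comparisons of β-catenin siRNA with control siRNA. It read 4.16, 4.21 and 4.22 after control siRNA and 3.23, 2.75 and 2.99 after β-catenin siRNA. With Wnt3a it read 3.56, 3.31 and 3.77 after control siRNA and 2.33, 2.43 and 2.73 after β-catenin siRNA. The groups did not overlap in either setting. The change was -1.21 (SE 0.25, adjusted p = 0.0035 in limma), with -0.94, -1.46 and -1.23 within the slides, and -1.05 with Wnt3a (adjusted p = 0.009), with -1.23, -0.88 and -1.04. APOE, its neighbour, gave -0.25 (adjusted p = 0.62) and -0.08 (adjusted p = 0.93) in these comparisons, and the difference between the genes was not tested. With the arrays scaled to spike-in probes, a setting chosen after seeing the data, APOC1 gave -1.12 (adjusted p = 0.077) and -1.25 (adjusted p = 0.014). Over 22 alternatives each, the adjusted p ranged from 0.0013 to 0.087 and, with Wnt3a, from 0.0036 to 0.13, and the change was below 0 in all of them. Both calls ended without replicate 1 of all conditions (-1.35 and -0.96) and without replicate 2 of all conditions (-1.08 and -1.13). Without transfection APOC1 read 5.53, 4.83 and 4.38, with Wnt3a alone 4.32, 3.43 and 4.52, with FZD8_CRD 3.14, 2.92 and 3.24, and with both agents 2.64, 2.65 and 3.06. FZD8_CRD lowered it by 3.52-fold (log2 change of -1.82, SE 0.25, adjusted p = 1.1e-05), lower within 3 of 3 slides, and -1.88 without replicate 3. In untransfected cells Wnt3a gave -0.82, and -1.20, -1.41 and 0.14 within the slides, with an adjusted p of 0.059. It was 0.027 with the slide as a block, 0.0497 without FZD8_CRD replicate 3 and 0.041 with scaling to spike-in probes. Control siRNA gave -0.72 against no transfection (adjusted p = 0.045), and this call ended without untransfected replicate 1 (-0.41) or 2 (-0.76) and without control siRNA replicate 1 (-0.70), 2 (-0.72) or 3 (-0.73). It ended also with the deposited value table (-0.72), with no filter on dim probes and with only the conditions compared in the fit.

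APOC3, an inhibitor of lipoprotein lipase, had the largest change of any member in a tested comparison. It read 5.67, 4.12 and 2.30 without transfection, 3.87, 1.84 and 3.53 with Wnt3a, 1.48, 1.02 and 1.73 after control siRNA, and 0.71, 0.21 and 0.66 after control siRNA with Wnt3a. After β-catenin siRNA it read 2.32, 1.09 and 1.84, and with Wnt3a 0.59, 0.92 and 1.37. With FZD8_CRD it read -0.81, -1.43 and 2.13, and with FZD8_CRD and Wnt3a 2.17, 2.05 and 2.08. FZD8_CRD replicates 1 and 2 were the lowest arrays, below every other array, and replicate 3 lay inside the range of the arrays with both agents. The change with FZD8_CRD was -4.07 (SE 0.76, adjusted p = 0.00023 in limma), or 16.8-fold lower, and -5.15 without replicate 3. It was -6.48, -5.55 and -0.17 within the slides. Control siRNA lowered APOC3 by 6.15-fold (log2 change of -2.62, adjusted p = 0.016), and by 5.88-fold with Wnt3a (log2 change of -2.56, adjusted p = 0.039). The first call ended without untransfected replicate 1 (-1.80) or control siRNA replicate 2 (-2.43), and the second without Wnt3a replicate 1 (-2.16) or 3 (-2.33) and without replicate 1 (-2.65), 2 (-2.40) or 3 (-2.62) of control siRNA with Wnt3a. Wnt3a with FZD8_CRD gave 2.14 (adjusted p = 0.09), with 2.98, 3.48 and -0.05 within the slides, and 3.22 without replicate 3 (adjusted p = 0.0015).

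APOA5, an activator of lipolysis, was measured near background. It read -3.77, -4.18 and -4.73 without transfection and was well above background on 18 of 24 arrays. In the other conditions it ranged from -6.13, the floor set for signals below detection, to -4.44, and 2 of the 3 arrays of β-catenin siRNA with Wnt3a were not well above background. With FZD8_CRD it was lower (log2 change of -1.33, adjusted p = 0.0035 in limma, and -1.38 without replicate 3), but FZD8_CRD replicate 2 was not well above background, so that the size of the change is uncertain. The change ranged from -1.72 to -0.41 over 19 alternatives, and the call ended without replicate 1 of all conditions (-1.31). APOA4, which is made mostly in the intestine, gave a signal well above background on 6 of 24 arrays, 2 each of no transfection, Wnt3a alone and control siRNA, and on 0 arrays of the other 5 conditions, so that no fold change is given.

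APOH, a plasma glycoprotein that binds phospholipids, read 7.19, 5.87 and 4.82 without transfection, 5.16, 3.57 and 5.37 with Wnt3a, 3.41, 3.35 and 3.43 after control siRNA, and 2.91, 2.51 and 2.97 after control siRNA with Wnt3a. After β-catenin siRNA it read 4.74, 3.91 and 4.43, and with Wnt3a 3.04, 3.54 and 3.98. With FZD8_CRD it read 3.52, 2.91 and 4.05, and with FZD8_CRD and Wnt3a 4.07, 4.05 and 4.05. The untransfected cultures were above all arrays of the control siRNA and FZD8_CRD conditions. APOH was 5.89-fold lower after control siRNA (log2 change of -2.56, SE 0.47, adjusted p = 0.00071 in limma) and 5.52-fold lower with FZD8_CRD (log2 change of -2.47, adjusted p = 0.00027, and -2.75 without replicate 3), each lower within 3 of 3 slides. With Wnt3a control siRNA gave -1.90 (adjusted p = 0.015), and this call ended without Wnt3a replicate 1 (-1.67) or 3 (-1.57) or control siRNA + Wnt3a replicate 2 (-1.76). After β-catenin siRNA all 3 arrays were above all 3 of control siRNA, by 0.96, which failed the correction (adjusted p = 0.23).

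APOM, a lipocalin that carries sphingosine-1-phosphate on HDL, varied least, with a range of 0.46 between condition means. Its 24 values lay between -0.19 and 0.45. It read 0.33, 0.34 and 0.42 after control siRNA with Wnt3a and -0.12, 0.01 and -0.19 after β-catenin siRNA with Wnt3a. These groups did not overlap, and the change was -0.46 (SE 0.11, adjusted p = 0.0093 in limma), lower within 3 of 3 slides. A further APOM probe gave -0.51 (adjusted p = 0.032), and scaling to spike-in probes gave -0.66, with an adjusted p of 0.32 in a range from 0.0011 to 0.32 over 22 alternatives. The call ended without β-catenin siRNA + Wnt3a replicate 3 (-0.42), without replicate 1 (-0.47) or replicate 2 (-0.53) of all conditions, with that scaling, and under the study's thresholds. Without Wnt3a the change was -0.26, and -0.25, -0.28 and -0.24 within the slides, with an adjusted p of 0.17, and of 0.048 with the slide as a block.

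**Figure D3:**
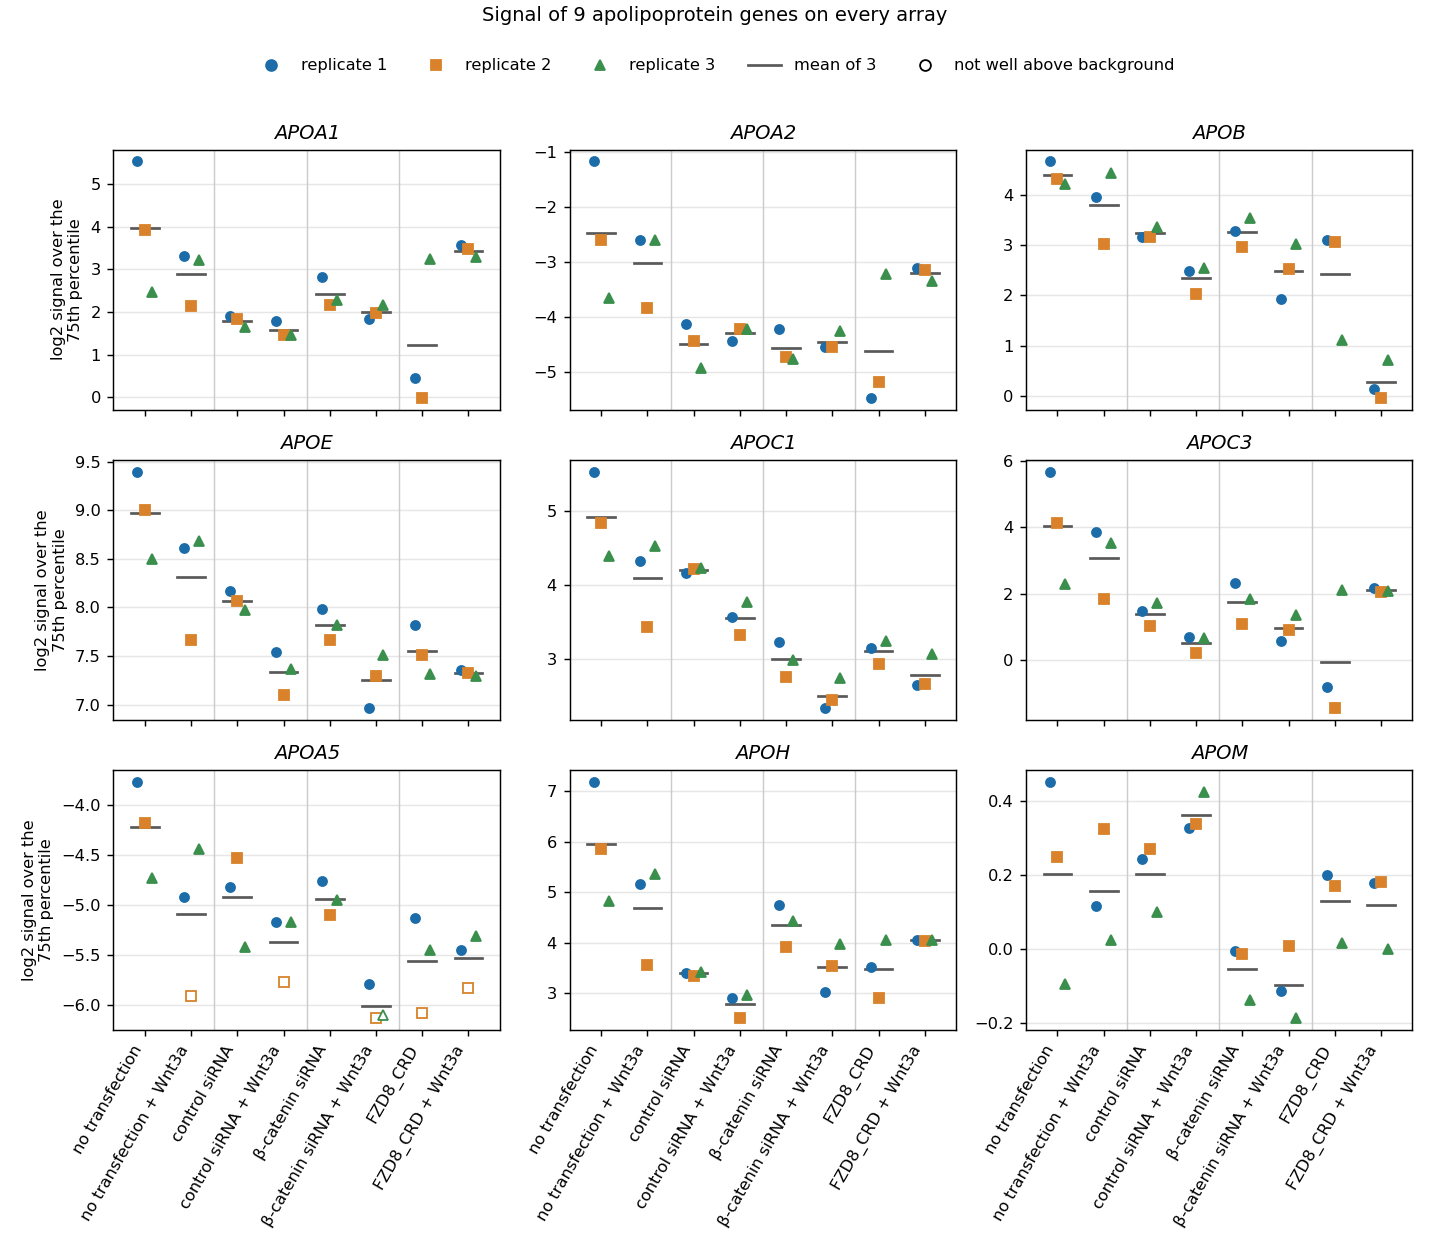
Log2 signal over the 75th percentile for 9 apolipoprotein genes on each of 24 arrays, by condition, with 1 symbol per replicate and a line at the mean of 3. Untransfected cultures are high and far apart in APOA1, APOA2, APOC3 and APOH, the lowest APOB values are those with FZD8_CRD and Wnt3a, and APOM spans 0.46 between condition means.

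The condition means of a member often ran into one another. Ordered from high to low, the 8 conditions form 7 neighbouring pairs, and the arrays of neighbours lay apart in 0 of 7 pairs for APOA1, APOA5, APOC3 and APOE, in 1 of 7 for APOA2 and in 2 of 7 for APOB, APOC1, APOH and APOM. Without FZD8_CRD replicate 3 the counts became 1 for APOA1, APOC3 and APOH, 2 for APOA2 and 3 for APOB. No transfection was highest for 8 of the 9 genes, all but APOM, which was highest after control siRNA with Wnt3a. The lowest condition was FZD8_CRD for APOA1, APOA2 and APOC3, FZD8_CRD + Wnt3a for APOB, control siRNA + Wnt3a for APOH, and β-catenin siRNA + Wnt3a for APOC1, APOE and APOM. The lowest conditions of APOA5 were near background and are not ranked. The step from control siRNA + Wnt3a to FZD8_CRD + Wnt3a in APOB, of 2.08, was the largest between neighbours whose arrays lay apart.

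The response to Wnt3a in untransfected cells differed between slides. Within slide 1 it was -2.22 for APOA1, -1.80 for APOC3 and -2.03 for APOH, within slide 2 -1.80, -2.28 and -2.30, and within slide 3 0.75, 1.23 and 0.55. Slides 1 and 2 thus gave lower levels and slide 3 higher ones, and the same held for APOA2, APOA5, APOB, APOC1 and APOE. Without replicate 3 of all conditions 8 of 9 genes were called (25.7% of all genes), with 3 called without the untransfected array of slide 3 (11.4%) and 4 without the Wnt3a array of slide 3 (12.9%). The median SD over the members was 0.58 without transfection, 0.71 with Wnt3a alone and 0.57 with FZD8_CRD, where the median over all genes was 0.18, 0.21 and 0.20. It was 0.29 after β-catenin siRNA and 0.12 after control siRNA, where the median over all genes was 0.12 in both. After control siRNA, Wnt3a gave lower values within 3 of 3 slides for APOB (-0.68, -1.15 and -0.82), APOA1, APOC1, APOC3, APOE and APOH, and none passed the test. That test shares its spread over all conditions, and the median SD of the members was only 0.23 after control siRNA with Wnt3a. With only the conditions compared in the fit some were called, as given below, so the absence of a change is not shown.

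**Figure D4:**
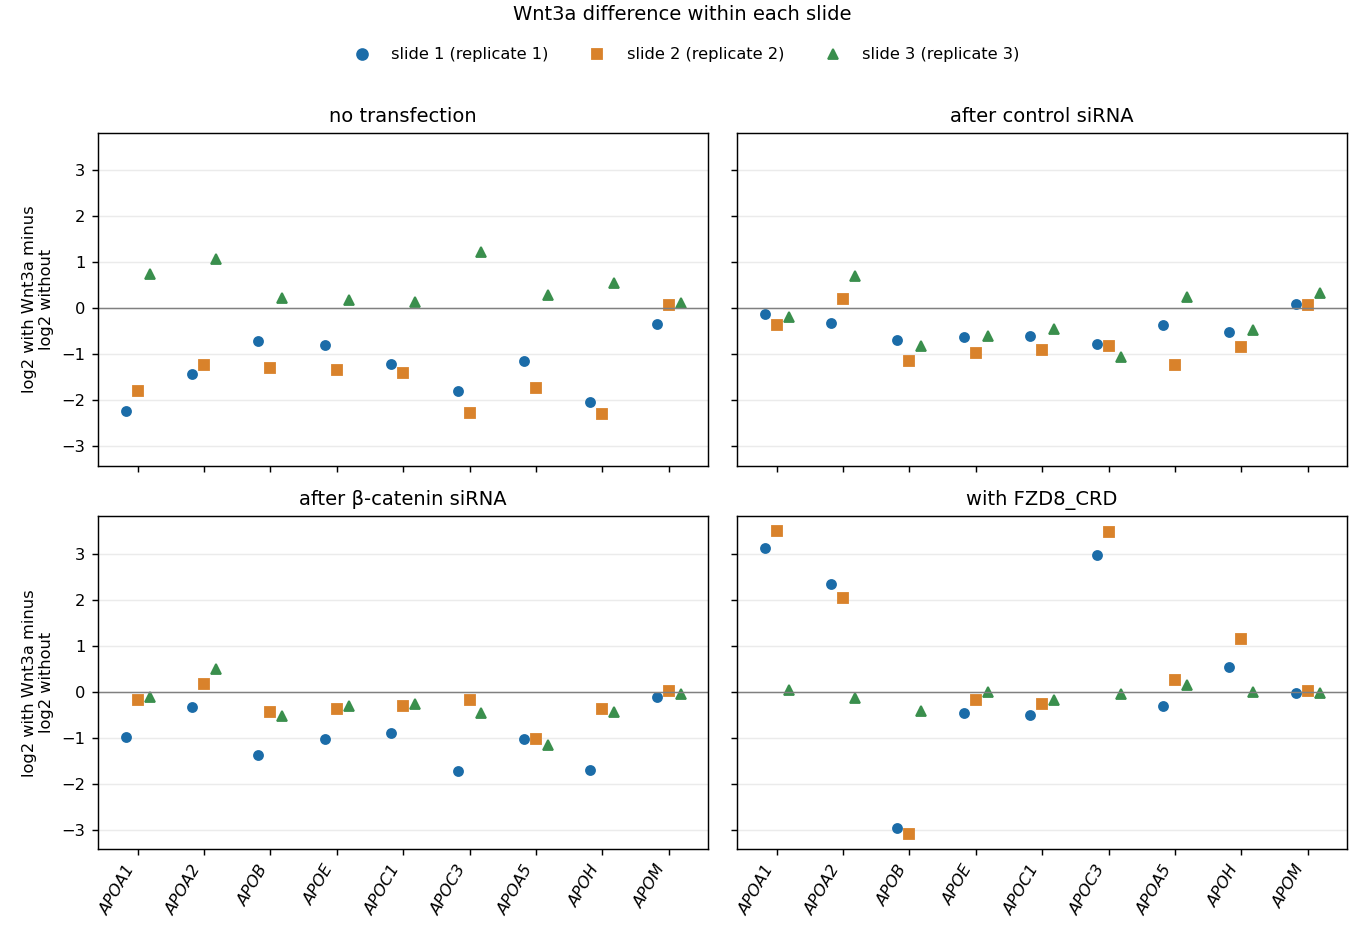
Log2 with Wnt3a minus log2 without, within each of 3 slides, for 9 apolipoprotein genes, in untransfected cells, after each siRNA and with FZD8_CRD. In untransfected cells the triangles of slide 3 lie above 0 and the other slides mostly below, and with FZD8_CRD slides 1 and 2 show APOA1, APOA2 and APOC3 higher and APOB lower while slide 3 lies nearer to 0.

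Taken without FZD8_CRD replicate 3, the difference between the Wnt3a responses with and without FZD8_CRD was 4.32 for APOA1 (adjusted p = 0.00074 in limma), 2.65 for APOA2 (adjusted p = 0.014), 4.17 for APOC3 (adjusted p = 0.0062) and -2.21 for APOB (adjusted p = 0.0041). With the array kept, the values were 3.31, 1.95, 3.09 and -1.56, and none passed the test. The array was singled out partly by the values of these same genes, so the adjusted p-values without it are no independent test. Calls also appeared with the array kept: 3 genes without untransfected replicate 3 (2.41% of all genes), 2 under the study's thresholds and 1 with scaling to spike-in probes. No share of all genes is given for the counts under those thresholds and that scaling.

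Other genes of lipoprotein metabolism changed in the same comparisons. Among 22 transcription factors known to act on apolipoprotein genes, FZD8_CRD lowered 18 and raised 2 (41.9% of all genes called), with a median of -1.004, and 18 were called without FZD8_CRD replicate 3. The largest changes were in ONECUT1, a hepatocyte-enriched factor (-4.47, adjusted p = 4.2e-07 in limma, and -4.39 without replicate 3), and NR1H4, the bile acid receptor (-3.61, adjusted p = 7.1e-06, and -3.68), while HNF4A, a nuclear receptor that acts on many apolipoprotein genes, gave -1.70 (adjusted p = 0.00065, and -1.92). Control siRNA lowered 9 and raised 2 of the 22 (22.3% of all genes called), again with ONECUT1 (-2.94) and NR1H4 (-2.30) at the head. After β-catenin siRNA 4 were higher and 1 lower than after control siRNA (10.6% of all genes called), with ONECUT1 at 1.46 (adjusted p = 0.036) and RORA at 1.24 (adjusted p = 0.0013). Wnt3a lowered 3 in untransfected cells (5.6% of all genes called), with NR5A2 lowest (-1.28, adjusted p = 0.0067), and raised 1 after control siRNA (2.11% of all genes called), NR2F1 (0.50). Fitted without FZD8_CRD replicate 3, these counts were 9 and 6. With FZD8_CRD, Wnt3a lowered 6, FOXA1 (-1.29) and PPARGC1A (-1.23) most, and raised 1 (8.29% of all genes called), and 11 were called without replicate 3, with PPARGC1A at -1.56.

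The list of assembly and secretion of APOB particles had 13 tested genes. FZD8_CRD lowered 6 and raised 1 of them (41.9% of all genes called), with a median of -0.26, and 7 were called without FZD8_CRD replicate 3. MTTP, which loads lipid onto APOB, fell most (-2.98, adjusted p = 3.8e-05 in limma, and -3.63 without replicate 3), followed by CIDEB (-2.43, and -2.65). Control siRNA lowered 3 and raised 1 (22.3% of all genes called), with MTTP at -2.14. β-catenin siRNA lowered 2 (10.6%), ERLIN1 (-0.44) and PDIA3 (-0.36). Wnt3a lowered 1 in untransfected cells (5.6%), DGAT2 (-0.64), and 1 after control siRNA (2.11%), ACAT2 (-0.43). Without FZD8_CRD replicate 3 these counts were 2 and 1. MTTP itself read 2.18, 1.38 and 0.74 without transfection, -1.91, -2.48 and -0.25 with FZD8_CRD, and -0.25, -0.25 and -0.16 with FZD8_CRD and Wnt3a, so that FZD8_CRD replicate 3 again lay near the arrays with both agents.

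In the list of HDL formation, lipolysis and remodelling, FZD8_CRD lowered 9 of 14 genes tested and control siRNA 7 (41.9% and 22.3% of all genes called), with medians of -0.79 and -0.71, and 11 were called for FZD8_CRD without replicate 3. ABCG8, a sterol exporter, was well above background on 3 of 3 untransfected arrays and 1 of 3 with FZD8_CRD, where the others were at the floor, so that no size is given, and it gave -3.79 after control siRNA. PON1 gave -3.31 (adjusted p = 3.3e-06 in limma, and -3.70 without replicate 3) and -2.31. β-catenin siRNA lowered 1, LPL (-0.45; 10.6% of all genes called). Wnt3a lowered 2 in untransfected cells, LPL (-0.54) and PON3 (-0.60), where 5.6% of all genes were called, and 1 after control siRNA, LPL (-0.75), where 2.11% were. Among 12 receptors and uptake genes FZD8_CRD lowered 6 and raised 1 (41.9% of all genes called), LRP8 (1.19, adjusted p = 2.7e-05, and 1.27 without replicate 3), and SORT1 was lowest (-0.66, and -0.42). Without replicate 3 the count of 7 became 4. Control siRNA raised LRP8 (0.80) and lowered LSR (-0.58), and these 2 of 12 were not more than the share of all genes called (22.3%). β-catenin siRNA lowered 2 (10.6% of all genes called), SCARB1 (-0.24) among them. Wnt3a called 0 of 12 in limma both in untransfected cells (5.6%) and after control siRNA (2.11%), and 1 in each without FZD8_CRD replicate 3.

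Markers of cell types gave the setting of these changes. FZD8_CRD lowered 10 of 11 hepatocyte markers, TF (-4.14, and -4.88 without replicate 3) among them, and raised AFP (1.01, and 0.83), where 41.9% of all genes were called. Control siRNA lowered 10 (22.3% of all genes called), AHSG (-3.49) among them. Wnt3a called 0 of 11 in limma in untransfected cells (5.6% of all genes called) and after control siRNA (2.11%), with medians of -0.99 and -1.15, and 1 and 4 in the fit without FZD8_CRD replicate 3. Of the mesenchymal genes, Wnt3a raised 4 of 6 in untransfected cells (5.6% of all genes called), COL1A1 most (1.86, adjusted p = 0.0041), and 3 after control siRNA (2.11% of all genes called; COL1A1, 2.19). With FZD8_CRD, Wnt3a raised 5 of the 6, with a median of 1.36 (8.29% of all genes called), and again 5 were called without FZD8_CRD replicate 3. FZD8_CRD alone lowered 2 and raised 2 of the mesenchymal genes (41.9% of all genes called), and control siRNA lowered 2 and raised 1 (22.3%). β-catenin siRNA lowered 2 without Wnt3a and 5 with it, with a median of -1.33 (10.6% of all genes called). Among 5 biliary and progenitor genes FZD8_CRD lowered 3 and raised KRT19 (0.36), with SPP1 lowest (-1.37), where 41.9% of all genes were called. Without replicate 3 only SPP1 was called (-1.24). Of 6 macrophage genes, 4 were tested, and of 5 enterocyte genes only VIL1 was tested. CD163 and LYZ, and the intestinal genes FABP2, SI, LCT and CDX2, did not pass the filter. FZD8_CRD lowered 1 of 4 macrophage genes, CD68 (-1.27, and -1.71 without replicate 3), 1 of 3 endothelial genes, KDR (-1.51, and -1.15), and VIL1 (-1.81, and -2.88). In the macrophage and endothelial lists 1 gene each was above 0, and these lists were not called more often than all genes (41.9%). β-catenin siRNA lowered 2 of 4 macrophage genes, MARCO (-1.73) and CD14 (-1.12), and 1 of 3 endothelial genes, PECAM1 (-0.94), again with 1 gene above 0 in each list (10.6% of all genes called).

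The members' profiles across the 24 arrays fell into unlike pairs. The correlation between APOA1 and APOC3 was r = 0.93 (rho 0.91), between APOC3 and APOH r = 0.90 and between APOC1 and APOE r = 0.89. Between APOA1 and APOB it was r = 0.03 (rho 0.15), while APOB and APOE gave r = 0.79 (rho 0.91). These arrays share conditions and slides, and the values are descriptions. Outside the family, the profiles nearest to APOB among 15974 genes were MAOA (r = 0.98), MMAB (r = 0.97) and HSD17B2 (r = 0.97), those nearest to APOC3 were TM4SF5 (r = 0.98), SERPINA4 (r = 0.97) and NR1I2 (r = 0.96), those nearest to APOH were AMBP (r = 0.99), C4BPA (r = 0.99) and AQP7 (r = 0.98), and those nearest to APOA1 were HPX (r = 0.98), AGMO (r = 0.97) and TTR (r = 0.96), each over 24 arrays.

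Some members are neighbours on the chromosome. APOA5, APOA4, APOC3 and APOA1 follow one another among the protein-coding genes of chromosome 11, between ZPR1 and SIK3, and APOE and APOC1 follow one another on chromosome 19, between TOMM40 and APOC4. In the chromosome 11 group ZPR1 and SIK3 correlated with APOA1 at r = -0.25 and r = -0.05 over 24 arrays, and the non-members further out, CADM1, BUD13, PAFAH1B2 and SIDT2, at r = -0.07, -0.16, -0.56 and 0.54. APOC3 did so at r = 0.93 and APOA5 at r = 0.53. On chromosome 19, TOMM40 and APOC4 correlated with APOE at r = 0.39 and r = 0.66, and BCAM, NECTIN2 and CLPTM1, further out, at r = 0.62, 0.18 and -0.12.

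Promoters of 7 of the 10 members, APOA2, APOA4, APOA5, APOC1, APOE, APOH and APOM, were found in the RefSeq table (build GRCh38.p14), and the 250 bases before the start were searched on both strands. The letters CTTTGAT, bound by TCF/LEF factors, are held by 2.26% of all 35116 promoters, CAAAGTCCA, bound by HNF4, by 0.325%, and AGGTCA, the hexamer of nuclear receptors, by 12.1%. The hexamer was found in 1 of the 7, APOA5, and the other motifs in 0. A match is a description of the letters. The sequences shown are those of APOA5, with AGGTCA in capitals and its starts 235 and 74 bases before the gene's start at the first promoter and 156 bases before it at the second, and, with no match, APOC1, which changed with β-catenin siRNA, and APOA2 and APOH, which changed with control siRNA and FZD8_CRD.
APOA5 first, chr11:116792421-116792670, minus strand: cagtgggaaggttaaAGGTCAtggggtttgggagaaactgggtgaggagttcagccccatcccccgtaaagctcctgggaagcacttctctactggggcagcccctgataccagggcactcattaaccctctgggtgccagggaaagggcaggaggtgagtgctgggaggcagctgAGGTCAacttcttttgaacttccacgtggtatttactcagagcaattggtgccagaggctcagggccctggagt
APOA5 second, chr11:116791880-116792129, minus strand: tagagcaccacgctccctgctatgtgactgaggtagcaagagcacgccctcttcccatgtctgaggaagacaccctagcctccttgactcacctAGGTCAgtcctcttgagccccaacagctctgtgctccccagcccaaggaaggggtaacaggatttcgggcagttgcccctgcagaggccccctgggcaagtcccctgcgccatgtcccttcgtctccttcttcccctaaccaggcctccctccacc
APOC1, chr19:44914422-44914671, plus strand: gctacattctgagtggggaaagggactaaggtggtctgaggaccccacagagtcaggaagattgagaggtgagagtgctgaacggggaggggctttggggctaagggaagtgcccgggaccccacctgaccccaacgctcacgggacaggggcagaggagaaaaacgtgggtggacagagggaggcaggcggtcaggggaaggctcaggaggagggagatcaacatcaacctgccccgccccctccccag
APOA2, chr1:161223629-161223878, minus strand: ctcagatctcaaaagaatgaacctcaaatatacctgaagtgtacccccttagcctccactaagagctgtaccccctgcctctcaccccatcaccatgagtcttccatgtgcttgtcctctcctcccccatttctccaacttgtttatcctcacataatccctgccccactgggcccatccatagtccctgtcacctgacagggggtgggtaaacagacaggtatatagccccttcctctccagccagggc
APOH, chr17:66229416-66229665, minus strand: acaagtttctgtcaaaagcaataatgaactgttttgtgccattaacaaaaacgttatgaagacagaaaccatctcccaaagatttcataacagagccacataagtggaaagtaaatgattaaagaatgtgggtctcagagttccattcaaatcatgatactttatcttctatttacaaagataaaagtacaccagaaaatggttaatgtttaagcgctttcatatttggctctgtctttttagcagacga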

How the data were processed

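Per the file headers, the deposited scanner files hold background-subtracted intensity from Agilent Feature Extraction (version 10.7.3.1 in the submitters' processing notes), with 62976 spots on each of 24 arrays. The deposited value table, used as an alternative, holds log2 values that the authors normalized and centred, with column medians between -0.05 and 0.019. Its scale and direction were checked against the scanner values (lowest correlation 0.922 per array), and its centring is known only from the medians.

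Control spots and spots marked as outliers were left out. The intensity was divided by the array's 75th percentile and raised to a floor of 1.43% of it (log2 -6.13, the median over arrays of the lowest signal well above background), log2 was taken, and spots of a probe were averaged. A probe was kept when some condition had a signal well above background in each of its 3 arrays (31067 probes), and the kept probe with the highest mean stood for its gene. RefSeq symbols came from matching transcripts, for 28174 of 50683 probes.

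limma (version 3.58.1, R 4.3.3) was fitted to 24648 genes with a mean for each of 8 conditions, and p-values were adjusted by Benjamini and Hochberg. The fit was tested on simulated data beforehand. These data had the same spread in every condition and no slide effect, so they cannot speak to unequal spread or to the slides. Alternatives covered the slide as a block, normalization, background correction, filters, floor, probes, the deposited table, the samples in the fit, the study's thresholds and leaving out arrays. Named genes were all 10 members, the 2 called genes of each list with the largest change, and the 3 genes most like each of the 4 members with the widest range. Genes beyond that rule (HNF4A, ALB, AFP, KRT19, APOL2 and the neighbours on the chromosome) were named after their values were seen. The members and the lists were chosen with earlier results of these data known: transcription factors, assembly of APOB particles, HDL and lipolysis, receptors, other apolipoproteins and cell type markers. Some values of genes in these lists are not reported here. The number of arrays limits the precision.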

Additional observations from a re-analysis of the deposited data

How the results depend on the processing

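Counts of apolipoprotein genes called, of 9, kept to within 1.5 times the reported count under quantile normalization, normexp, kept outlier spots, the mean of probes, the other floor, the stricter filter and the deposited table. With the replicate block (slide) the count became 1 for Wnt3a in untransfected cells and 2 for β-catenin siRNA against control siRNA, the genes added being APOC1 (adjusted p = 0.027) in the first and APOM (adjusted p = 0.048) in the second, and it changed no other count by that much. In the other gene lists the block moved these reported limma counts. For Wnt3a in untransfected cells transcription factors went from 3 to 9, APOB particle assembly from 1 to 3, HDL and lipolysis from 2 to 4, receptors from 0 to 1, other apolipoproteins from 1 to 3 and macrophage genes from 0 to 1. For Wnt3a after control siRNA transcription factors went from 1 to 3, assembly from 1 to 2 and hepatocyte markers from 0 to 2. Biliary genes went from 0 to 1 there. For Wnt3a with FZD8_CRD transcription factors went from 7 to 9 and hepatocyte markers from 3 to 4. For control siRNA transcription factors went from 11 to 12, assembly from 4 to 7, receptors from 2 to 4, other apolipoproteins from 4 to 5 and macrophage genes from 0 to 1. For β-catenin siRNA assembly went from 2 to 3, HDL and lipolysis from 1 to 2, other apolipoproteins from 3 to 4, hepatocyte markers from 0 to 1 and biliary genes from 1 to 2. For FZD8_CRD assembly went from 7 to 9, HDL and lipolysis from 9 to 11, receptors from 7 to 10, other apolipoproteins from 8 to 9, biliary genes from 4 to 5, and macrophage and endothelial genes each from 1 to 2. Same-numbered arrays of different conditions deviated alike from their condition means: the deviations correlated at 0.38 on average, with 82 of 84 pairs over 0.1. The value of -0.19 for other numbers follows largely from centring each condition on its own mean, and is no separate comparison. The main limma fit does not use the slide.

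Without a filter on dim probes the count was 1 for Wnt3a with FZD8_CRD, 4 for control siRNA and 2 for control siRNA with Wnt3a. Fitting only the conditions compared gave 4 for Wnt3a after control siRNA, 0 for Wnt3a with FZD8_CRD, 3 for control siRNA, 0 for control siRNA with Wnt3a and 2 for β-catenin siRNA. The study's thresholds gave 1 for Wnt3a in untransfected cells, 1 after control siRNA, 1 after β-catenin siRNA, 1 for β-catenin siRNA with Wnt3a and 2 for the difference with FZD8_CRD. Scaling to 7 spike-in probes, chosen after seeing the data, gave 2 for Wnt3a in untransfected cells, 2 for control siRNA with Wnt3a, 0 for β-catenin siRNA, 1 for β-catenin siRNA with Wnt3a and 1 for the difference with FZD8_CRD. It moved the median of all genes from 0.01 to -0.38 for Wnt3a in untransfected cells, from -0.03 to -0.31 for control siRNA and from -0.02 to 0.25 for it with Wnt3a, from 0.02 to 0.19 for Wnt3a after control siRNA, from 0.03 to -0.10 for Wnt3a after β-catenin siRNA, from -0.01 to -0.22 for β-catenin siRNA with Wnt3a, from -0.09 to -0.48 for FZD8_CRD, and from 0.01 to -0.28 and 0.01 to 0.31 for the differences after β-catenin siRNA and with FZD8_CRD. The cause of these shifts was not tested. The counts in this paragraph carry no share of all genes called under the same setting. They are not results particular to the apolipoprotein genes.

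Leaving out arrays gave counts from 0 to 8 for Wnt3a in untransfected cells, 0 to 4 for Wnt3a with FZD8_CRD, 0 to 7 for control siRNA, 0 to 6 for control siRNA with Wnt3a, 0 to 1 for β-catenin siRNA, 0 to 2 with Wnt3a, 5 to 8 for FZD8_CRD, 3 to 5 with Wnt3a and 0 to 5 for the difference with FZD8_CRD. For control siRNA, 1 gene was called without untransfected replicate 1, and 4 without control siRNA replicate 2 or replicate 3. With Wnt3a, 0 were called without Wnt3a replicate 1 or 3 or control siRNA + Wnt3a replicate 2, and 2 without control siRNA + Wnt3a replicate 1 or 3. For Wnt3a with FZD8_CRD, 1 was called without any one of the arrays except FZD8_CRD replicate 3, and 4 without that one. For FZD8_CRD with Wnt3a, 5 were called without Wnt3a replicate 2, and for the difference with FZD8_CRD 3 without untransfected replicate 3. Leaving out FZD8_CRD replicate 3 for Wnt3a in untransfected cells, a comparison that does not use it, was also chosen after seeing the data and gave 1. In the comparisons that use it each array was left out in turn, but this one was stressed after its values were seen. The calls of APOC1 and APOB after control siRNA ended under 10 of 22 and 10 of 23 alternatives, and those of the other 5 genes called there under 1 to 6 of 22. A probe of transcript BC051278, used for APOB, gave smaller changes in the 5 comparisons where APOB was called (-1.49, -0.80, -0.89, -1.26 and -2.17 on the log2 scale for Wnt3a with FZD8_CRD, control siRNA without and with Wnt3a, and FZD8_CRD without and with Wnt3a) and turned 2 changes that were not called, to -0.0353 for β-catenin siRNA with Wnt3a and -0.0659 for the difference after β-catenin siRNA. Signals near background limit APOA4 and APOA5. The counts in this paragraph also carry no share of all genes called, and are not results particular to the apolipoprotein genes.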

Other observations

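Of 13 other apolipoproteins tested, FZD8_CRD lowered 8 and raised 0 (1 was above 0), with a median of -0.39, where 41.9% of all genes were called, and 7 were called without FZD8_CRD replicate 3. Control siRNA lowered 4, where 22.3% of all genes were called. SAA4, an apolipoprotein of HDL, gave -2.34 (adjusted p = 0.00062 in limma, and -2.37 without replicate 3) with FZD8_CRD and -2.67 after control siRNA, and SAA2, an acute-phase protein, gave -1.82 (-1.61 without replicate 3) and -2.45. β-catenin siRNA raised CLU, a chaperone found on HDL, by 1.45 (adjusted p = 0.03), and lowered APOL1 and APOL2, where 10.6% of all genes were called. APOL1 read 4.30, 4.25 and 4.22 after control siRNA and 3.502, 3.487 and 3.504 after β-catenin siRNA, without overlap, a change of -0.76 (adjusted p = 0.00022), and APOL2 gave -0.56 (adjusted p = 0.00044). Wnt3a lowered 1 in untransfected cells (5.6% of all genes called) and 1 after control siRNA (2.11%), in both cases APOO, which encodes a mitochondrial protein (-0.46 and -0.48). Without FZD8_CRD replicate 3 these counts were 2 and 1. APOC2, APOD, APOF and APOL5 did not pass the filter on dim probes.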
